A study of Mus musculus with 12 samples.

Results

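BilCLiP cells grown as 3D spheroids were compared with bilCLiP cells grown in 2D, over all expressed genes. BilCLiP cells are cultured mouse cells that the labels give as derived from biliary epithelial cells, the lining of the bile ducts, and CLiP is a name used in the field for chemically induced liver progenitors. The 6 libraries were chosen by their titles, 3 of 2D cultures and 3 of 3D cultures, out of 12 RNA-seq libraries in all. The other 6 come from hepCLiP cells, made from hepatocytes and grown in the same pair of conditions, with a RosaConfetti reporter in cultures 1 and 3 and RosaYFP in culture 2. The series title asks about the plasticity of such cells between the hepatocyte and biliary identities.

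All 6 bilCLiP cultures carried the RosaYFP reporter, a yellow fluorescent protein gene at the Rosa26 locus, and all 6 were kept in small hepatocyte medium with Y-27632, A83-01 and CHIR99021. These block the ROCK kinases, the TGF-beta type I receptors and GSK3, so that no bilCLiP culture here was free of these inhibitors. The 2D cells grew on collagen-coated plastic with 10% fetal bovine serum (FBS). The 3D cells were aggregated in microwells for 3 days without FBS and then floated in ultra-low attachment plates for 6 to 8 days with 10 ng/ml of oncostatin M, an interleukin 6-type cytokine. Whether FBS was present in that second phase is not given in the sources used here. Shape, oncostatin M, FBS and time in culture therefore differ together between 2D and 3D and cannot be told apart. The treatment tag of the 3 bilCLiP 3D libraries says 2D, against their titles, and that of hepCLiP 2D replicate 3 says 3D. The expression of these libraries, described next, set them apart from the 3 labelled 2D in every pairing. Nothing in the labels says that cultures 1, 2 and 3 came from separate animals, and p-values speak only of the spread among these libraries.

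Hepatocytes and biliary cells arise from a shared embryonic progenitor. The hepatocyte programme is maintained by a small network of transcription factors, among them HNF4A, the FOXA proteins and C/EBP alpha, which bind the promoters of genes for secreted plasma proteins, bile acid transporters and metabolic enzymes. Oncostatin M acts through a receptor made of OSMR and gp130 (Il6st), activates STAT3, and is widely used to mature hepatocyte-like cells. Biliary cells are marked by keratins 7 and 19, SOX9 and EpCAM, and cells spread on stiff plastic build actin stress fibres.

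Each library of the series held 16142365 to 21253382 counts, and 13428 to 14067 genes reached 10 counts in a bilCLiP library. Libraries of bilCLiP correlated at 0.960 to 0.977 within 2D, 0.958 to 0.978 within 3D and 0.789 to 0.884 between 2D and 3D (Pearson's r of log2 values across genes, which are not independent replicates). Levels are given below in CPM (counts scaled to library size), scaled by each library's TMM normalization factor, and changes as the log2 fold change of 3D over 2D with its standard error. The factors of bilCLiP cultures 1, 2 and 3 were 1.26, 1.212 and 1.195 in 2D and 0.941, 0.825 and 0.877 in 3D. With such factors, an unchanged share of all counts reads as a higher CPM in 3D. A gene is said to rise or fall in 3D only where its Benjamini-Hochberg adjusted p in edgeR's quasi-likelihood test was under 0.05. Of 14798 genes tested, 4485 (30.3%) passed, 2335 (15.8%) higher in 3D and 2150 (14.5%) lower, and 1548 and 1268 of these changed at least 2-fold. The median log2 fold change of all tested genes was -0.00243. In 7264 tested genes (49.1%) the 3 values of one culture lay all above the 3 of the other. The shares of 15.8% and 14.5% are the background against which the counts of each gene group below are to be read. Some lists share members, so that the same gene can be counted in several of them. The libraries are bulk samples, in which fewer cells of a type and less RNA per cell cannot be told apart.

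Libraries of the same culture number shared deviations from their group means. Across genes, these deviations in 2D and 3D correlated at 0.506, 0.458 and 0.432 for cultures 1, 2 and 3 and of -0.366 to -0.0283 for other pairs. Adding the culture number to the fit as a replicate block called 6383 genes, 4446 of them among the 4485, and blocked values are given below where they change a call, or move a list's count by at least 1.5 times and 2 genes.

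The labelled cell type was first checked on markers. Alb, the gene of serum albumin, stood at 0.861, 49.9 and 69.3 CPM in 2D and 6026, 19965 and 22893 CPM in 3D. Its level in 2D was far lower in culture 1 than in cultures 2 and 3, and the 3D values were all far above it (log2 fold change 8.67 ± 1.74, adjusted p = 0.00413). Krt19, the keratin of bile duct cells, went the other way, with 507, 541 and 1034 CPM in 2D and 1.25, 2.64 and 12.1 CPM in 3D (log2 fold change -7.02 ± 1.12, adjusted p = 0.00126). Krt7, Sox9 and Epcam, further biliary markers, were present in all 6 libraries and are described with that group below. Markers of other cells that a liver preparation can hold were low, apart from the mesothelial gene Msln, described below. The 12 endothelial markers summed to 15.2 to 22.7 CPM in 2D and 24.7 to 27.0 CPM in 3D, and the 19 macrophage and leukocyte markers to 5.38 to 10.9 and 5.47 to 19.5 CPM. Pecam1 and Cdh5 never exceeded 7 counts, Ptprc never exceeded 3, and Adgre1 and Hbb-bs were at 0 in all 6. The 18 stellate cell and fibroblast markers summed to 77.7 to 100.9 CPM in 2D and 69.9 to 73.6 in 3D. Within them Dcn, a matrix proteoglycan of fibroblasts, had 0, 0 and 25 counts in 2D and 106, 111 and 306 in 3D (adjusted p = 0.0849, 0.0266 with the replicate block), and Lrat, a retinoid enzyme of stellate cells, had 0 in 2D and 4, 5 and 6 in 3D. Of the 5 tested members of that list Reln rose (adjusted p = 0.0425) and Ecm1 fell (adjusted p = 0.00861). Their median log2 fold change was 2.58, and 3 rose with the replicate block. The Reln call ended without any 2D replicate or 3D replicate 1 or 2 (adjusted p up to 0.17). It also ended with culture 1 left out (adjusted p = 0.148). The part of other cell types in any result was not tested.

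Among 26 tested of 28 hepatocyte transcription factors, 15 rose and 1 fell, with a median log2 fold change of 1.56. Cebpa, the gene of C/EBP alpha, was at 1.81, 1.52 and 2.32 CPM in 2D and 63.4, 153 and 93.9 CPM in 3D. All 3 spheroid libraries lay far above the 3 flat ones (log2 fold change 5.78 ± 0.34, adjusted p = 5.81e-06). Creb3l3, a membrane-bound factor of liver lipid and acute phase genes, was at 0.258, 0.855 and 1.59 CPM in 2D and 98.3, 157 and 105 CPM in 3D (log2 fold change 7.06 ± 0.58, adjusted p = 3.88e-05). Hnf4a, the master regulator of the hepatocyte programme, was already expressed in 2D, at 135, 299 and 238 CPM in 2D and 571, 711 and 579 CPM in 3D (log2 fold change 1.47 ± 0.29, adjusted p = 0.00353). Its change was small beside that of Cebpa, and its groups did not overlap. Nr5a2, a nuclear receptor of bile acid synthesis, and Nr1i2, the xenobiotic receptor PXR, rose by 4.68 and 4.79. The Nr1i2 call ended when culture 1 was left out of both conditions (adjusted p = 0.06). Other members that rose were Foxa3 (3.72), the lipid sensor Ppara (3.41), the nuclear receptor partner Rxra (3.05) and Prox1 (2.69), a factor of early liver development.

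Foxa2, a pioneer factor of endoderm, was the member that fell, with 83.4, 84.2 and 87.8 CPM in 2D and 57.2, 49.4 and 50.2 CPM in 3D (log2 fold change -0.7 ± 0.15, adjusted p = 0.0047). Hhex, Nr1h4 (the bile acid receptor FXR) and Cebpb did not pass the test. Hhex, a homeobox factor of the early liver, was at 193, 167 and 176 CPM in 2D and 229.9, 142 and 178 CPM in 3D (adjusted p = 0.888). The plot of identity genes sets these factors beside plasma protein and biliary genes.

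**Figure D1:**
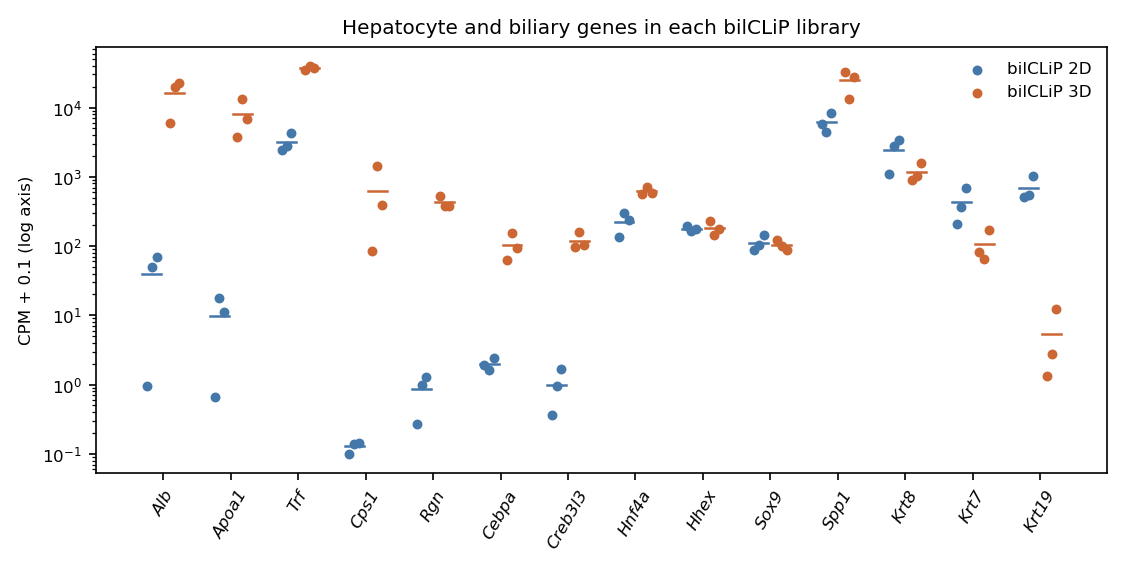
Levels of 14 hepatocyte and biliary genes, as CPM + 0.1 on a log axis, with 1 point per bilCLiP library (blue 2D, orange 3D) and a bar at the mean of 3. Cebpa and Alb stood higher in all 3 spheroid libraries than in all 3 flat ones, Krt19 lower, and Sox9 overlapped.

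Among lists of at least 10 tested genes, secreted plasma proteins had the largest share that rose. Of 39 tested genes of a list of 40, 37 rose and 0 fell, with a median log2 fold change of 8.67 (8.49 with genes at 0 in 2D set to their bound). Together the 40 genes took 0.829%, 1.64% and 1.89% of all counts in 2D and 17.7%, 25.4% and 23.1% in 3D. The means were 1.45% ± 0.554 and 22.1% ± 3.99 (SD, n = 3 each), and the exact two-sided permutation p was 0.1, the smallest that 3 against 3 allows. Itih3, a heavy chain of the hyaluronan-binding inter-alpha-trypsin inhibitor, was at 0.172, 0.155 and 0.364 CPM in 2D and 1102, 1277 and 2613 CPM in 3D (log2 fold change 12.79 ± 0.64, adjusted p = 4.97e-06). Serpina3n, an acute phase protease inhibitor of a family of near-identical copies, was at 0.0861, 0.117 and 0 CPM in 2D and 4010.5, 2664 and 1391 CPM in 3D (log2 fold change 15.1 ± 0.78, adjusted p = 4.97e-06). Both were all but silent in 2D and abundant in every spheroid library. Lrg1, a leucine-rich acute phase glycoprotein, was at 0.344, 0.272 and 0.592 CPM in 2D and 558, 1122 and 964 CPM in 3D (log2 fold change 11.09 ± 0.6, adjusted p = 5.41e-06), and Ttr, the carrier of thyroid hormone, at 41.1, 675 and 485 CPM in 2D and 6942, 7725 and 6930 CPM in 3D (log2 fold change 4.17 ± 0.95, adjusted p = 0.0077). Ttr was expressed in 2D cultures 2 and 3 and much less in culture 1, as was Alb. Serpina3k and Serpina1d had 0 counts in 2D and were at least 38490-fold and at least 12320-fold higher in 3D, against a floor of 3 counts over the group. These bounds cover counting error only, and reads may be split between copies of the Serpina1 and Serpina3 families. Afp, the fetal counterpart of albumin, rose from 10.03, 56.2 and 37.5 CPM to 127, 306 and 761 CPM (log2 fold change 3.52 ± 1.08, adjusted p = 0.0312), a call that ended without any of 5 bilCLiP libraries, all but 3D replicate 1, with adjusted p-values up to 0.105, and with culture 1 left out (adjusted p = 0.068).

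Promoters were read for the genes that changed, since members of a pathway moved together. RefSeq's table of mouse promoters, build GRCm38.p6, holds 250 bases before to 50 after each start, and it was matched by symbol. The submitters' processing notes name GRCm39, so only names were shared between the tables. It matched 1474 promoters of 1163 of the 1548 genes at least 2-fold higher and 1229 promoters of 921 of the 1268 genes at least 2-fold lower. The search was for exact letters on both strands, and no motif searched contains another. The HNF4 motif CAAAGTCCA stood in 25 (1.7%) of the promoters of genes that rose at least 2-fold, in 3 (0.244%) of those that fell and in 156 (0.475%) of all 32851. In the plasma protein list it stood in 0 of 35 promoters. Across the same 3 sets, the C/EBP motif TTGCNCAA stood in 3.8%, 2.28% and 2.94%, and the STAT motif TTCCNGGAA in 2.1%, 1.14% and 1.15%. The AP-1 motif TGANTCA was in 7.53%, 8.06% and 7.81%, and the TEAD motif GGAATG in 17.1%, 15.1% and 14.7%. In the 13851 promoters of all tested genes the shares were 0.527% for HNF4, 2.54% for C/EBP, 1.3% for STAT, 5.52% for AP-1 and 12.6% for TEAD. The STAT motif stood in 0 of 28 promoters of the list of oncostatin and STAT3 signalling. The C/EBP motif stood in 5 of 23 (21.7%) of the hepatocyte clotting factors, and AP-1 in 9 of 35 (25.7%) of the plasma proteins. A match is a description of letters and not a bound site. To show what was matched, the 120 bases before the start of 4 genes that rose, chosen after their values were seen, are printed 5′ to 3′ on the gene's strand with the HNF4 letters in capitals. They belong to Cyp2c70 (chr19:40187287-40187406, minus strand), Cyp3a11 (chr5:145879855-145879974, minus strand), Agxt2 (chr15:10358413-10358532, plus strand) and Treh (chr9:44673113-44673232, plus strand).
Cyp2c70: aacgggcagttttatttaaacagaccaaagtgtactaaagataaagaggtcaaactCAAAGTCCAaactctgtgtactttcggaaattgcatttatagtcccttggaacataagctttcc
Cyp3a11: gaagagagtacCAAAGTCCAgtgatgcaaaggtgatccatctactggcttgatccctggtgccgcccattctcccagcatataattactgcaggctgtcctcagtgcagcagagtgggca
Agxt2: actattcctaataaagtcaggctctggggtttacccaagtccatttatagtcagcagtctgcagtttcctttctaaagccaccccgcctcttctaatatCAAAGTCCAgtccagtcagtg
Treh: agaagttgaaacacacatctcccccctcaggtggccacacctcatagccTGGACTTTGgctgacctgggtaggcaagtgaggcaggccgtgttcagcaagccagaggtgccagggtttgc
The matches begin 64, 109, 21 and 71 bases before the start. Cyp2c70, an enzyme that hydroxylates bile acids in the mouse, was at 0, 0.6996 and 0.41 CPM in 2D and 64.6, 457 and 157 CPM in 3D (log2 fold change 9.2 ± 1.44, adjusted p = 0.00112), and its reads can be shared with other Cyp2c genes. Agxt2, a mitochondrial aminotransferase, and Treh, the enzyme that splits trehalose, had 0 counts in 2D and were at 5.14, 19.2 and 9.22 CPM and 3.03, 13.9 and 5.05 CPM in 3D. None of these genes overlapped between the conditions, and the drug-metabolising Cyp3a11 is described with its group.

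Blood clotting genes fell into groups that moved in opposite directions. Of 28 clotting and fibrinolysis factors made by hepatocytes, 25 rose and 0 fell, with a median of 7.41. F9, the factor lacking in haemophilia B, was at 0.172, 0 and 0 CPM in 2D and 112, 157 and 106 CPM in 3D (log2 fold change 10.95 ± 0.55, adjusted p = 4.97e-06). F5, the cofactor of the prothrombin-cleaving complex, was at 0.818, 0.428 and 0.592 CPM in 2D and 104, 199.8 and 112 CPM in 3D (log2 fold change 7.81 ± 0.61, adjusted p = 2.73e-05). Fgb, a chain of fibrinogen, was at 16.5, 350.3 and 409 CPM in 2D and 20775, 36133 and 32319 CPM in 3D (log2 fold change 6.85 ± 1.07, adjusted p = 0.00108). F9 and F5 were near 0 in all 2D libraries, whereas fibrinogen was already expressed in 2D cultures 2 and 3. F7, the factor that starts clotting with tissue factor, had 0 counts in 2D and was at least 1987-fold higher in 3D. F10 had 1 count in 2D, with a ratio of 14490 (exact 95% interval 2600 to 572300, counting error only), and Hrg a ratio of 12420 (2229 to 490700). F11 and Habp2 did not pass the test (adjusted p = 0.339 and 0.0832), although in each culture number their 3D value exceeded the 2D value. With the replicate block Habp2 passed (adjusted p = 0.037), as did Klkb1 (adjusted p = 0.00705).

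Of 15 tested genes that act in clotting and plasminogen activation at cell surfaces, 10 fell and 1 rose, with a median of -1.68. Thbd, thrombomodulin, the surface receptor that turns thrombin to an anticoagulant, was at 202, 166 and 124 CPM in 2D and 5.47, 6.26 and 7.83 CPM in 3D (log2 fold change -4.65 ± 0.26, adjusted p = 5.41e-06). Thbs1, thrombospondin, was at 179, 114 and 246 CPM in 2D and 9.35, 7.29 and 34.6 CPM in 3D (log2 fold change -3.39 ± 0.8, adjusted p = 0.00924). Neither overlapped between the conditions, which for Thbd was a condition of its choice. The urokinase gene Plau (-4.17) and its receptor Plaur (-2.09), the thrombin receptor F2r (-2.57), the protein C receptor Procr (-2.2) and tissue factor, F3 (-1.69), also fell, as did Anxa2 (-1.27) and S100a10 (-1.28), whose proteins hold plasminogen at the cell surface. The call of Anxa2 ended without 2D replicate 1 or 2 or 3D replicate 2 or 3 (adjusted p up to 0.0877), that of S100a10 without 2D replicate 3 or 3D replicate 1 or 2 (up to 0.0609), and those of S100a10 and Thbs1 with culture 1 left out (adjusted p = 0.056 and 0.0614). Tfpi2, a protease inhibitor of the matrix, was the member that rose, from 0 counts in 2D, at least 315.3-fold.

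**Figure D2:**
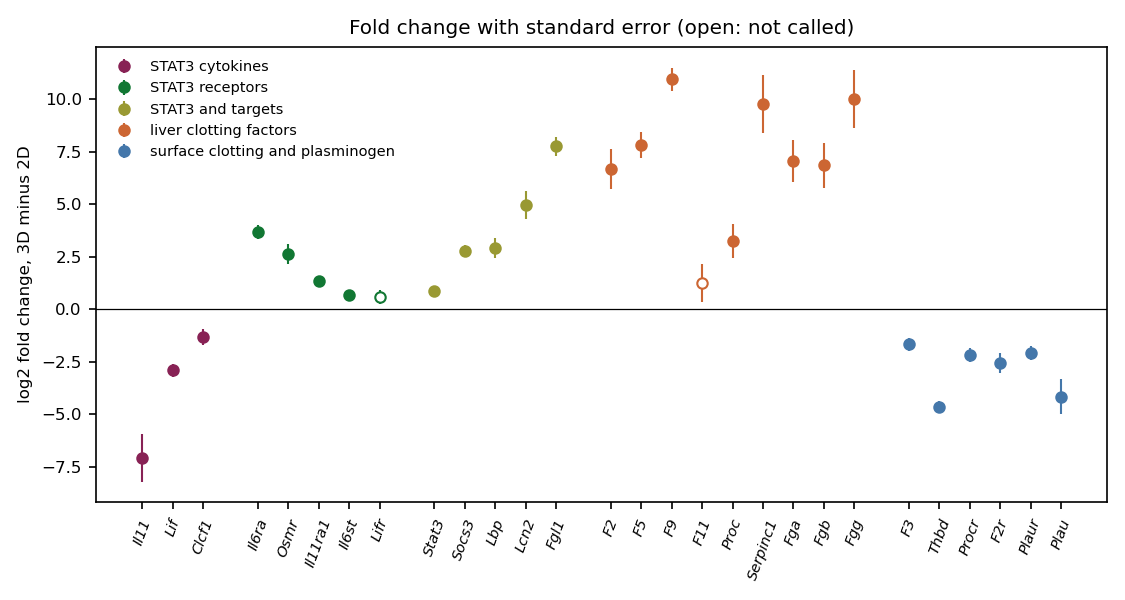
Log2 fold changes of 3D over 2D, with standard errors, for cytokines, receptors and targets of the STAT3 pathway, clotting factors of hepatocytes and clotting genes of cell surfaces in bilCLiP cells. Filled points passed the test and open ones did not. F9 lies at 10.95 and Thbd at -4.65.

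Complement and lipoprotein genes also rose as groups. Of 24 tested complement genes of 26, 19 rose and 2 fell (median 6.32). C3, the central component, was at 72.7, 1037 and 1531 CPM in 2D and 23317, 25689 and 24649 CPM in 3D (log2 fold change 4.8 ± 0.85, adjusted p = 0.00204). C3 was far lower in 2D culture 1 than in 2D cultures 2 and 3, while its 3D levels were close together. The members that fell were Masp1 (-1.75), a protease of the lectin pathway, and Cd55 (-2.31), a membrane protein that protects cells from complement. Their calls ended without several single libraries (Masp1 2D replicate 2, 3D replicates 1 and 3, adjusted p up to 0.0801, and Cd55 2D replicate 3, 3D replicates 1 and 2, up to 0.0787), and that of Cd55 with culture 1 left out (adjusted p = 0.101). C6 and Mbl1 had 0 counts in 2D and were at least 371.3-fold and at least 236.6-fold higher. Of 28 apolipoproteins and lipoprotein genes, 20 rose and 1 fell (median 4.41). Apoa1, the protein of high density lipoprotein, was at 0.56, 17.6 and 11 CPM in 2D and 3706, 13263 and 6937 CPM in 3D (log2 fold change 9.68 ± 1.34, adjusted p = 0.000572). Apoh (10.43), Apoa2 (10.23), Apoe (5.8) and Mttp (4.72), which loads lipid onto apolipoprotein B, rose too. Apob itself was at 1617, 4199 and 2769.9 CPM in 2D and 3153, 6123 and 4322 CPM in 3D and did not pass (adjusted p = 0.199), but passed with the replicate block (adjusted p = 0.0202). It was expressed at this high level in flat culture already.

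Of 26 tested genes of iron and metal handling, 15 rose and 2 fell (median 1.27). Trf, transferrin, was at 2430, 2811 and 4301 CPM in 2D and 34415, 39246 and 37152 CPM in 3D (log2 fold change 3.54 ± 0.4, adjusted p = 0.000177), and Hp, the carrier of free haemoglobin, at 18.3, 99.6 and 334 CPM in 2D and 10494, 21645 and 19615 CPM in 3D (log2 fold change 6.84 ± 0.96, adjusted p = 0.000619). Trf was expressed in all 2D libraries and differed little among spheroids. The iron regulation genes Tfr2 (3.97), Tmprss6 (7.06) and Hjv (0 counts in 2D, at least 444.8-fold) rose. So did the haem carrier Hpx (5.47), the reductase Steap4 (5.92), the zinc and iron importer Slc39a14 (2.26) and metallothionein 1, Mt1 (3.01). Hamp, the gene of the iron hormone hepcidin, was at 0, 4.94 and 5.42 CPM in 2D and 0, 4.42 and 18.2 CPM in 3D. It was at 0 in both libraries of culture 1 and did not pass (adjusted p = 0.703). Hmox1, which breaks down haem, fell by 1.51, and Ftl1, the ferritin light chain, fell by 0.89.

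Enzymes of hepatocyte metabolism rose in most classes. Of 135 cytochrome P450 genes, 30 had no count and 68 were tested, 51 of which rose and 3 fell, with a median of 6.09 (4.80 with bounds). Cyp3a11, a main drug-metabolising enzyme, was at 0, 0.194 and 2.23 CPM in 2D and 1436, 2310.3 and 1705 CPM in 3D (log2 fold change 11.15 ± 2.61, adjusted p = 0.00884), and Cyp27a1, of bile acid synthesis, at 5.47, 10.2 and 14 CPM in 2D and 91.7, 137 and 58.2 CPM in 3D (log2 fold change 3.27 ± 0.43, adjusted p = 0.000445). All 3 spheroid cultures were higher for each. Cyp2d9, of a family of near-identical copies, had 2 counts in 2D and a ratio of 6959 (1926 to 57470). Cyp7a1, the rate-limiting enzyme of bile acid synthesis, was at 0, 0 and 0 CPM in 2D and 0.593, 1.32 and 1.57 CPM in 3D. Its level in 3D was low although its call passed (adjusted p = 0.0244), and the call ended without any of 5 bilCLiP libraries, all but 3D replicate 1 (adjusted p up to 0.0596), and with culture 1 left out (0.0708). Of 53 tested genes of conjugating enzymes, 33 rose and 3 fell (median 2.26). Among them Inmt, an indole methyltransferase, had 1 count in 2D and a ratio of 3050 (546.8 to 120500). Of 42 tested peroxisomal genes, 25 rose and 1 fell (median 0.869), with Slc27a2, an importer and activator of fatty acids, at 0 counts in 2D and at least 2078-fold higher. Acaa2, which takes the last step of mitochondrial fatty acid oxidation, was at 40.6, 56.5 and 48.3 CPM in 2D and 314, 424 and 333 CPM in 3D (log2 fold change 2.88 ± 0.16, adjusted p = 5.41e-06), and its 2D and 3D values formed tight, separate groups. Rdh7, a retinol dehydrogenase, had 1 count in 2D and a ratio of 7757 (1392 to 306400). Of 85 tested nuclear genes of the respiratory chain, 52 rose and 0 fell, with a small median of 0.575, and 30 rose with culture 1 left out. Ndufa1, a complex I subunit, was at 35.9, 33 and 36.9 CPM in 2D and 91.1, 105 and 100 CPM in 3D (log2 fold change 1.49 ± 0.17, adjusted p = 0.000211). Of the 13 protein-coding genes of the mitochondrial genome 0 passed in edgeR's test, and their median was 0.487. All mitochondrially encoded genes together took 3.67% ± 0.759 of all counts in 2D and 3.69% ± 1.04 in 3D (SD, n = 3 each).

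Hepatocytes divide tasks between the portal and the central end of the lobule. Of 22 tested periportal genes 20 rose and 0 fell (median 6.84, or 6.75 with bounds), and of 17 pericentral genes 9 rose and 0 fell (median 2.09). Cps1, the mitochondrial enzyme that feeds the urea cycle, was at 0, 0.0389 and 0.0456 CPM in 2D and 85, 1412 and 394 CPM in 3D, a ratio of 23230 over the 2 counts of 2D (6432 to 191900). Arg1, arginase, was at 0.129, 0.272 and 0.0911 CPM in 2D and 4.48, 696 and 189 CPM in 3D (log2 fold change 10.73 ± 1.65, adjusted p = 0.00103), and Tat, a tyrosine aminotransferase, at 0, 0.272 and 0.228 CPM in 2D and 9.81, 731 and 259.7 CPM in 3D (log2 fold change 10.89 ± 1.81, adjusted p = 0.0015). These 3 rose in every spheroid culture, but culture 1 stayed far below cultures 2 and 3. Rgn, regucalcin, a pericentral enzyme, was at 0.172, 0.894 and 1.18 CPM in 2D and 533, 373 and 385 CPM in 3D (log2 fold change 9.15 ± 0.52, adjusted p = 5.41e-06), and was highest in culture 1. Cyp1a2, a pericentral P450 enzyme, was at 0, 0.155 and 0.137 CPM in 2D and 54.4, 27 and 8.12 CPM in 3D (log2 fold change 8.15 ± 1.28, adjusted p = 0.00113). Cyp2e1, the ethanol-oxidising P450 of pericentral cells, was at 0, 0 and 0 CPM in 2D and 0.725, 1.03 and 0.464 CPM in 3D, at least 17.54-fold higher. That call (adjusted p = 0.0473) ended when any of 10 libraries was left out, all 6 of bilCLiP included, with adjusted p-values up to 0.106, and was at 0.136 with culture 1 left out. Glul, glutamine synthetase of the innermost pericentral cells, was at 42, 69.5 and 196 CPM in 2D and 131, 88.5 and 109 CPM in 3D and did not pass (adjusted p = 0.896). Without 2D replicate 3, its highest library, Glul passed (adjusted p = 0.0306). G6pc, the last step of glucose release, was at 0, 0 and 0.182 CPM in 2D and 53.7, 59.3 and 62.2 CPM in 3D (log2 fold change 9.85 ± 1.64, adjusted p = 0.00154), close to 0 in every flat culture and even among the spheroids.

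Isozymes of sugar metabolism moved in both directions. Of 32 tested genes 8 rose and 7 fell (median 0.01, near that of all genes), and 4 fell without 3D replicate 2. Pkm, the pyruvate kinase of dividing and non-liver cells, was at 2109, 2398 and 1950.1 CPM in 2D and 713, 279.6 and 455 CPM in 3D (log2 fold change -2.16 ± 0.34, adjusted p = 0.0011), without overlap. Pklr, the liver pyruvate kinase, was at 12, 70.2 and 44.7 CPM in 2D and 34.1, 76.2 and 59.8 CPM in 3D and did not pass (adjusted p = 0.559). Hk2 (-1.61), Eno1 (-1.4) and Aldoa (-1.31), general glycolytic enzymes, fell. Khk, the liver enzyme of fructose entry (2.65), rose. The liver glucose transporter Slc2a2 rose too (4.35), and its call ended without each 2D replicate (adjusted p up to 0.065) and with culture 1 left out (adjusted p = 0.099).

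Of 23 tested liver transporters 14 rose and 3 fell (median 3.25). Slco1b2 was at 0, 0.0389 and 0.182 CPM in 2D and 31.7, 162 and 86.4 CPM in 3D (log2 fold change 10.24 ± 1.18, adjusted p = 0.000208). Abcb11, the bile salt export pump, was at 0.0431, 0 and 0.137 CPM in 2D and 3.16, 66.4 and 9.69 CPM in 3D (log2 fold change 8.7 ± 1.37, adjusted p = 0.00114), and Slc10a1, which takes up bile salts from blood, at 0.301, 0 and 0.137 CPM in 2D and 4.61, 25.2 and 3.54 CPM in 3D (log2 fold change 6.22 ± 1.14, adjusted p = 0.00255). For all of these 3D culture 2 was the highest library. Abcg5 (6.46) and Abcg8 (6.25), the sterol exporter's subunits, rose. Abcc4 and Abcc1, organic anion pumps of the basolateral membrane, fell by 2.7 and 1.4, and Abcc2, their canalicular relative, was at 197, 708 and 426 CPM in 2D and 418, 587 and 491 CPM in 3D (adjusted p = 0.76).

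Biliary genes moved in both directions. Of 33 tested members of 38, 7 rose and 8 fell, with a median of -0.41. Krt19, given above, fell most. Tspan8, a tetraspanin of epithelia, was at 514, 645 and 583 CPM in 2D and 85, 139 and 100.5 CPM in 3D (log2 fold change -2.42 ± 0.61, adjusted p = 0.0131), and Hes1, the Notch target, at 119, 101 and 124 CPM in 2D and 45.2, 29.6 and 41.7 CPM in 3D (log2 fold change -1.56 ± 0.25, adjusted p = 0.00125). Pkhd1, the fibrocystin of cilia, fell as well (-1.98). Sox9 was at 88.1, 104 and 144 CPM in 2D and 123, 100 and 88.6 CPM in 3D (adjusted p = 0.864), and its 2D and 3D values overlapped. Epcam was low, at 2.45, 2.22 and 5.65 CPM in 2D and 4.74, 3.73 and 7.48 CPM in 3D (adjusted p = 0.469). Krt7 was at 209, 372 and 699.6 CPM in 2D and 81.1, 65.9 and 171 CPM in 3D (log2 fold change -2.01 ± 0.89, adjusted p = 0.114), and fell in the fit with the replicate block (adjusted p = 0.0207). Spp1, osteopontin, a secreted protein of bile duct cells, rose, at 5833, 4395 and 8447 CPM in 2D and 33046, 13421 and 27945 CPM in 3D (log2 fold change 1.99 ± 0.49, adjusted p = 0.0112), and its call ended with culture 1 left out (adjusted p = 0.078). Slc10a2, the bile acid transporter of the duct and ileum (3.35), and Ehf, an epithelial factor (1.86), also rose. With culture 1 left out the calls of Tspan8 (adjusted p = 0.0743) and Ehf (0.068) ended, that of Ehf also without 2D replicate 2 or 3D replicate 3 (up to 0.0716). The 7 rises became 4 without 2D replicate 2 and 3 without culture 1, and the 8 falls became 4 without 2D replicate 3 or without 3D replicate 2, and 12 with the replicate block.

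Other epithelial programmes were read from keratins, squamous, gut and mesothelial lists. Of 10 tested keratins of 55 only Krt19 passed (median -1.19), and with the replicate block 6 fell. Krt8 and Krt18, the simple epithelial pair, were at 1082, 2768 and 3397 CPM in 2D and 886, 1016 and 1573 CPM in 3D and at 1108, 2209.5 and 2379 CPM in 2D and 1178, 924 and 1384 CPM in 3D (adjusted p = 0.0548 and 0.08004), and Krt8 passed with the replicate block (0.0149). With culture 1 left out both passed, with log2 fold changes of -1.22 and -0.96. Of 21 tested squamous genes 8 fell and 2 rose (median -0.51). Sprr1a, a small proline-rich protein of the cornified envelope, was at 1618, 2695 and 1884 CPM in 2D and 0.527, 5.4 and 1.28 CPM in 3D (log2 fold change -9.73 ± 1.02, adjusted p = 0.00013). It was high in every flat culture and close to 0 in the spheroids. Prr9, of the same gene cluster, had 0 counts in 3D and was at least 112.7-fold lower, and Emp1, a membrane protein of stratified epithelia, fell by 5.32. Msln, mesothelin, was at 867, 691 and 545 CPM in 2D and 7.97, 16.4 and 27.8 CPM in 3D (log2 fold change -5.33 ± 0.72, adjusted p = 0.000524), while the mesothelial gene Upk3b never exceeded 3 counts. Of 12 tested gut and mucous genes 5 rose and 0 fell (median 2.77), and 3 rose without culture 1 and without 2D replicate 1, 3D replicate 1 or 3D replicate 3. Tff3, a trefoil peptide of mucus, was at 0, 0.544 and 0.0911 CPM in 2D and 199, 940.2 and 183 CPM in 3D (log2 fold change 10.91 ± 2.33, adjusted p = 0.00564). Reg3b, an antibacterial lectin with near-identical relatives, was at 0.0861, 0.0389 and 29.9 CPM in 2D and 11197, 185 and 2279.5 CPM in 3D (log2 fold change 8.83 ± 2.91, adjusted p = 0.0415), a call that ended without 2D replicate 1 or 2, 3D replicate 1 or 3, or hepCLiP 2D replicate 1 (adjusted p up to 0.097) and without culture 1 (adjusted p = 0.157).

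Of 32 tested junction genes 7 rose and 11 fell (median -0.55), and the 11 falls became 6 without 2D replicate 2 or without 3D replicate 3. Gjb1, connexin 32, the gap junction protein of hepatocytes, was at 0.474, 3.19 and 3.78 CPM in 2D and 297, 524 and 373 CPM in 3D (log2 fold change 7.32 ± 0.72, adjusted p = 0.000103), and Gjb2, connexin 26, rose by 6.7. Gja1, connexin 43, was at 73.6, 38.7 and 19 CPM in 2D and 19, 14.5 and 31.5 CPM in 3D (adjusted p = 0.496). Cldn14 (5.41), Cldn1 (3.62) and Ocln (2.88), tight junction proteins, rose. The call of Cldn1 ended without 2D replicate 3 or 3D replicate 2 (adjusted p up to 0.0684), and that of Ocln without 3D replicate 2 (0.057). Cdh2, N-cadherin, was at 576, 363 and 352 CPM in 2D and 157, 144 and 127 CPM in 3D (log2 fold change -1.59 ± 0.22, adjusted p = 0.000524), and Cdh6, a cadherin of the fetal kidney and bile duct, at 486, 276 and 449 CPM in 2D and 146, 50.7 and 159 CPM in 3D (log2 fold change -1.77 ± 0.42, adjusted p = 0.0101). Cdh1, E-cadherin, was at 157, 469 and 567 CPM in 2D and 191, 211 and 310.5 CPM in 3D and did not pass (adjusted p = 0.175), but did with culture 1 left out (adjusted p = 0.033).

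Oncostatin M was given in 3D and its pathway was read by role. Of 28 tested genes 10 rose and 3 fell (median 0.62). The 3 that fell encode cytokines of the same family: Lif, at 89.1, 88.5 and 92.7 CPM in 2D and 9.75, 9.53 and 16.6 CPM in 3D (log2 fold change -2.91 ± 0.3, adjusted p = 0.000129), Clcf1 (-1.33) and Il11, at 145, 16.2 and 11.6 CPM in 2D and 0.395, 0.23 and 0.638 CPM in 3D (log2 fold change -7.07 ± 1.14, adjusted p = 0.00129). Receptor genes were among those that rose. Osmr was at 37.7, 17.3 and 46.7 CPM in 2D and 219.6, 145 and 262 CPM in 3D (log2 fold change 2.63 ± 0.47, adjusted p = 0.00232), and Il6ra, the interleukin 6 receptor, at 2.67, 4.86 and 4.28 CPM in 2D and 42.5, 68.4 and 38.6 CPM in 3D (log2 fold change 3.66 ± 0.33, adjusted p = 6.09e-05). Il11ra1 (1.33) and the shared subunit Il6st (0.67) rose too, and Lifr did not pass (adjusted p = 0.233). Downstream, Stat3 was at 127, 125 and 184 CPM in 2D and 251, 279 and 269 CPM in 3D (log2 fold change 0.87 ± 0.19, adjusted p = 0.00571), and its feedback inhibitor Socs3 at 51.5, 63 and 77.5 CPM in 2D and 519.8, 385 and 386 CPM in 3D (log2 fold change 2.75 ± 0.29, adjusted p = 0.00013). The 2D and 3D values of these genes did not overlap, those of Lifr included. The target Hamp, hepcidin, did not pass (adjusted p = 0.703), and its values overlapped. The Clcf1 call ended without 2D replicate 2 or 3 or 3D replicate 1 or 2 (adjusted p up to 0.0954) and with culture 1 left out (0.0843), and that of Il6st with culture 1 left out (adjusted p = 0.0827). The acute phase targets Fgl1 (7.75), Lbp (2.9) and Lcn2 (4.95) rose.

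In the axis of growth hormone and insulin-like growth factors, 10 of 21 tested genes rose and 6 fell (median 1.16), and 6 rose without 3D replicate 1. Ghr, the growth hormone receptor, was at 13.7, 19.4 and 21 CPM in 2D and 127, 137 and 118 CPM in 3D (log2 fold change 2.82 ± 0.33, adjusted p = 0.000223), and its transducers Stat5a and Stat5b rose by 1.16 and 1.03, the latter not passing without 3D replicate 2 (adjusted p = 0.0517). Igfbp1 was at 0.258, 5.99 and 3.51 CPM in 2D and 351, 854 and 1110.3 CPM in 3D (log2 fold change 7.88 ± 1.04, adjusted p = 0.000454). Insr, the insulin receptor, was at 39.7, 46.9 and 58.8 CPM in 2D and 99.5, 157 and 115 CPM in 3D (log2 fold change 1.35 ± 0.23, adjusted p = 0.00154), whereas Igf1r, its relative for IGF1, was at 87.9, 87 and 93.1 CPM in 2D and 26, 28.4 and 25.3 CPM in 3D (log2 fold change -1.75 ± 0.13, adjusted p = 1.72e-05). The receptor pair thus moved in opposite directions without overlap. The adaptors Irs1 and Irs2 fell by 1.22 and 1.75. Igf2, a fetal growth factor from an imprinted locus, was at 0.0861, 0 and 0.182 CPM in 2D and 48.1, 31.7 and 90.7 CPM in 3D (log2 fold change 9.28 ± 1.36, adjusted p = 0.000786), while Igf1 was low at 0.689, 0.0389 and 1.82 CPM in 2D and 2.04, 0.574 and 1.68 CPM in 3D (adjusted p = 0.651). H19, the RNA next to Igf2, was at 0.431, 0.155 and 0.638 CPM in 2D and 11.7, 6685 and 1316 CPM in 3D (log2 fold change 12.68 ± 2.17, adjusted p = 0.00177). It was far lower in spheroid culture 1 than in cultures 2 and 3. Of 21 tested imprinted genes 3 rose and 5 fell (median -0.14), 3 fell without 2D replicate 2, and 6 rose with the replicate block.

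In growth factor and inflammatory lists more members fell than rose. Of 35 tested genes of epidermal growth factor signalling and ERK feedback, 12 fell and 5 rose (median -0.10). The 12 falls became 7 without 3D replicate 2, and the 5 rises became 3 without 3D replicate 2 or 3. Hbegf, a ligand, was at 81.7, 57.5 and 71.3 CPM in 2D and 9.88, 9.13 and 14.1 CPM in 3D (log2 fold change -2.67 ± 0.25, adjusted p = 7.83e-05), and the ligands Areg (-3.16) and Ereg (-2.43) fell too. The call of Areg ended without any bilCLiP library but 2D replicate 1 (adjusted p up to 0.079) and with culture 1 left out (0.0663), and that of Ereg without 3D replicate 2 (0.0541) or culture 1 (0.0605). Dusp4 and Dusp6, phosphatases that ERK induces, fell by 2.23 and 2.2. Erbb3, a receptor of neuregulins, was at 1.68, 0.855 and 1.91 CPM in 2D and 34, 106 and 74.7 CPM in 3D (log2 fold change 5.6 ± 0.62, adjusted p = 0.000182), and Errfi1, an inhibitor of the receptors, rose by 1.71. Egfr did not pass (adjusted p = 0.0693), but did with the replicate block (adjusted p = 0.0324). Of 32 tested genes of TGF-beta and BMP signalling, 14 fell and 3 rose (median -1.75), and 5 rose with the replicate block. Id3, a BMP target, was at 152, 174 and 246 CPM in 2D and 1.51, 1.32 and 3.13 CPM in 3D (log2 fold change -6.57 ± 0.89, adjusted p = 0.00053), and Id1 fell by 2.84. Tgfb2, a ligand, was at 49.6, 52.5 and 91.4 CPM in 2D and 7.38, 6.37 and 10.8 CPM in 3D (log2 fold change -2.98 ± 0.34, adjusted p = 0.000201). The inhibitory Smad7 (-2.83) and Smad6 (-2.74) and the transducer Smad3 (-2.22) fell. All cultures in both conditions held A83-01, which blocks the TGF-beta receptors. Of 28 tested NF-kB and chemokine genes 10 fell and 7 rose (median -0.72), and 4 rose with culture 1 left out. Csf1, a growth factor of macrophages, was at 232, 237 and 226 CPM in 2D and 48.4, 45.1 and 58 CPM in 3D (log2 fold change -2.2 ± 0.18, adjusted p = 3.43e-05), and Ccl2, a chemokine of monocytes, at 603, 1237 and 995 CPM in 2D and 79.7, 121 and 161 CPM in 3D (log2 fold change -2.97 ± 0.61, adjusted p = 0.00468). Cxcl12, another chemokine, rose, at 0.991, 1.2 and 0.683 CPM in 2D and 37.7, 22.7 and 23.6 CPM in 3D (log2 fold change 4.85 ± 0.51, adjusted p = 0.00013).

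Many contractile and matrix genes fell in 3D. Of 37 tested genes of the contractile actin cytoskeleton 0 rose and 20 fell, with a median of -1.17, and the falls became 30 with the replicate block and 12 with culture 1 left out. Flnc, an actin crosslinker, was at 270.1, 293 and 255 CPM in 2D and 26.9, 22.3 and 27.9 CPM in 3D (log2 fold change -3.41 ± 0.25, adjusted p = 2.12e-05), and Actb, beta actin, at 1496, 1365 and 2063 CPM in 2D and 701, 713 and 1061 CPM in 3D (log2 fold change -0.99 ± 0.24, adjusted p = 0.011). Ankrd1 and Ccn1, targets of the YAP coactivator, were at 874, 869 and 822 CPM in 2D and 183, 182 and 249.9 CPM in 3D and at 736, 738 and 706 CPM in 2D and 38.1, 65.6 and 88.6 CPM in 3D, with log2 fold changes of -2.06 ± 0.37 and -3.5 ± 0.46. Each of the 4 had all flat cultures above all spheroids, which for Flnc was a condition of its choice. The Actb call ended with culture 1 left out (adjusted p = 0.063). Of 30 tested integrins and laminins 14 fell and 2 rose (median -1.07), and 5 rose with the replicate block. Itga2, a collagen receptor, was at 68.6, 85.2 and 64.5 CPM in 2D and 3.03, 2.47 and 6.96 CPM in 3D (log2 fold change -4.13 ± 0.57, adjusted p = 0.000599), and Hspg2, perlecan of basement membranes, at 339, 195 and 331 CPM in 2D and 13, 10.2 and 16.8 CPM in 3D (log2 fold change -4.43 ± 0.53, adjusted p = 0.000258). Of 18 tested collagens 2 rose and 2 fell (median 0.02), the falls being the basement membrane chains Col4a1, at 1968, 903 and 1431 CPM in 2D and 222, 157 and 177 CPM in 3D (log2 fold change -2.95 ± 0.36, adjusted p = 0.000283), and Col4a2 (-2.84). With the replicate block 4 collagens rose and 5 fell. Of 34 tested genes of matrix remodelling 12 fell and 2 rose (median -1.04), and 18 fell and 7 rose with the replicate block. Loxl2, which crosslinks collagen, fell by 3.77 and Sparc, a matrix protein, by 2.21. Timp1, an inhibitor of matrix proteases and a known target of oncostatin M, was at 15.1, 26.1 and 18.3 CPM in 2D and 149, 115 and 208 CPM in 3D (log2 fold change 2.99 ± 0.36, adjusted p = 0.000245).

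Cell division genes fell together. Of 35 mitosis genes 34 fell and 0 rose, with a median of -2.56, and of 40 DNA replication genes 30 fell and 1 rose (median -1.14). The 30 became 17 without 3D replicate 2 and 18 with culture 1 left out. Cdk1, the kinase of mitotic entry, was at 85.1, 77.6 and 51.5 CPM in 2D and 19.6, 12 and 22.8 CPM in 3D (log2 fold change -1.98 ± 0.41, adjusted p = 0.00474), and Top2a, the topoisomerase of chromosome separation, at 193, 186 and 111 CPM in 2D and 47, 18.9 and 42.8 CPM in 3D (log2 fold change -2.17 ± 0.41, adjusted p = 0.00292). Mki67, the antigen of cycling cells, was at 116, 107 and 70.8 CPM in 2D and 25.9, 11.4 and 26.9 CPM in 3D (log2 fold change -2.19 ± 0.52, adjusted p = 0.00951), and its call ended with culture 1 left out (adjusted p = 0.052). In each, 3D culture 2 was the lowest library. Ccnd1, cyclin D1, was at 966, 778 and 651 CPM in 2D and 120, 70.4 and 98 CPM in 3D (log2 fold change -3.05 ± 0.26, adjusted p = 4.46e-05). Pttg1, securin, was the mitosis gene that did not pass (adjusted p = 0.677). Of 34 cell-cycle inhibitors and p53 targets 11 fell and 1 rose (median -0.66), and 21 fell with the replicate block. Cdkn1a, the p53 target p21, was at 157, 186 and 160.4 CPM in 2D and 144, 171 and 161 CPM in 3D (adjusted p = 0.797).

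Promoters of mitosis genes are known to hold a cell cycle homology region (CHR, TTTGAA) downstream of CCAAT boxes. The table matched 28 of the 35 mitosis genes, with 29 promoters. The CHR letters stood in 22 (75.9%) of these promoters against 12.3% of those of tested genes and 17.9% of all, the CCAAT letters in 75.9% against 37.8% and 37.4%, and both in 19 (65.5%) against 2284 of 32851 (6.95%). The E2F motif GGCGGGAA stood in 18.4% of promoters of the DNA replication list, in 3.86% of those of all tested genes and in 2.19% of all. Printed next are the 120 bases before the start of 4 mitosis genes that hold both, chosen after their values were seen, with CHR and CCAAT letters of either strand in capitals. They belong to Cdk1 (chr10:69352913-69353032, minus strand), Top2a (chr11:99024190-99024309, minus strand), Ube2c (chr2:164769809-164769928, plus strand) and Kif11 (chr19:37376262-37376381, plus strand), all of GRCm38.p6 and on the gene's strand.
Cdk1: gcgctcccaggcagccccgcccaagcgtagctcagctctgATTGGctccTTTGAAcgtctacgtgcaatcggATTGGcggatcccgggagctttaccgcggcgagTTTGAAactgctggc
Top2a: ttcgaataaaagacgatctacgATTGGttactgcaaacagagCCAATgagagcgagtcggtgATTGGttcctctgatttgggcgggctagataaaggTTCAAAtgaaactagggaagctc
Ube2c: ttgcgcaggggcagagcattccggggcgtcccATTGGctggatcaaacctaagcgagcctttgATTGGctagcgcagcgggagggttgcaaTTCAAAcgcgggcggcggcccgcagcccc
Kif11: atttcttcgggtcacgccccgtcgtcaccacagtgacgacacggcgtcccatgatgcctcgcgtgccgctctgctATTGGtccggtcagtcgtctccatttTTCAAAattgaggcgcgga
Ube2c, a ubiquitin-conjugating enzyme of anaphase, and Kif11, the kinesin that separates spindle poles, changed by -2.95 and -2.36 on the log2 scale.

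The secretory route rose with the secreted proteins. Of 46 genes of the endoplasmic reticulum's folding and export machinery 36 rose and 0 fell, with a median of 0.98. Xbp1, the factor that expands the secretory apparatus, was at 171, 157 and 186 CPM in 2D and 1062, 736 and 739 CPM in 3D (log2 fold change 2.3 ± 0.2, adjusted p = 4.40e-05). Hspa5, a chaperone of the endoplasmic reticulum, was at 759.9, 744 and 701 CPM in 2D and 1457, 2734 and 1966 CPM in 3D (log2 fold change 1.48 ± 0.24, adjusted p = 0.00119). Dnajb9 (2.32), Herpud1 (2.29) and Sdf2l1 (2.06), further folding and degradation genes, rose as well. Ddit3, which marks terminal folding stress, was at 18.4, 60.8 and 26 CPM in 2D and 13, 21.8 and 17.8 CPM in 3D (adjusted p = 0.0653, with the replicate block 0.0168), and of 27 amino acid and ATF4 stress genes 5 rose and 7 fell (median -0.29), 4 falling without 3D replicate 2 or 3 or without culture 1. Of 32 tested NRF2 and oxidative stress genes 10 fell and 4 rose (median -0.44). The 10 became 6 without 2D replicate 2, and the 4 became 1 with culture 1 left out and 6 with the replicate block. Gclc, the limiting enzyme of glutathione synthesis, was at 2742, 2185 and 1448 CPM in 2D and 796, 353 and 355 CPM in 3D (log2 fold change -2.08 ± 0.37, adjusted p = 0.00195), and Me1, malic enzyme, at 375, 509.8 and 398 CPM in 2D and 118, 133 and 125 CPM in 3D (log2 fold change -1.77 ± 0.19, adjusted p = 0.00013).

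In the other lists most members did not pass the test. Of 28 tested Wnt genes 1 rose and 3 fell (median -0.18), with the GSK3 inhibitor present in all cultures, and of 26 hypoxia genes 2 rose (4 with the replicate block) and 3 fell (median -0.07). Of 29 tested histone genes 2 rose and 3 fell (median -0.22), and 4 rose and 5 fell with the replicate block. Of 33 tested interferon and antigen presentation genes 4 rose and 1 fell (median 0.45), and the rises ranged from 0 to 6 as single libraries were left out and were 8 with the replicate block. Of 80 tested cytosolic ribosomal protein genes 7 rose and 0 fell (median 0.25). These 7 became 29 with the replicate block and 0 without 2D replicate 2, without 2D replicate 3, without 3D replicate 1 or without culture 1. As a share of all counts the ribosomal list was not higher in 3D. It took 4.09% ± 0.633 in 2D and 3.62% ± 0.974 in 3D (SD, n = 3 each, exact two-sided permutation p = 0.5).

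**Figure D3:**
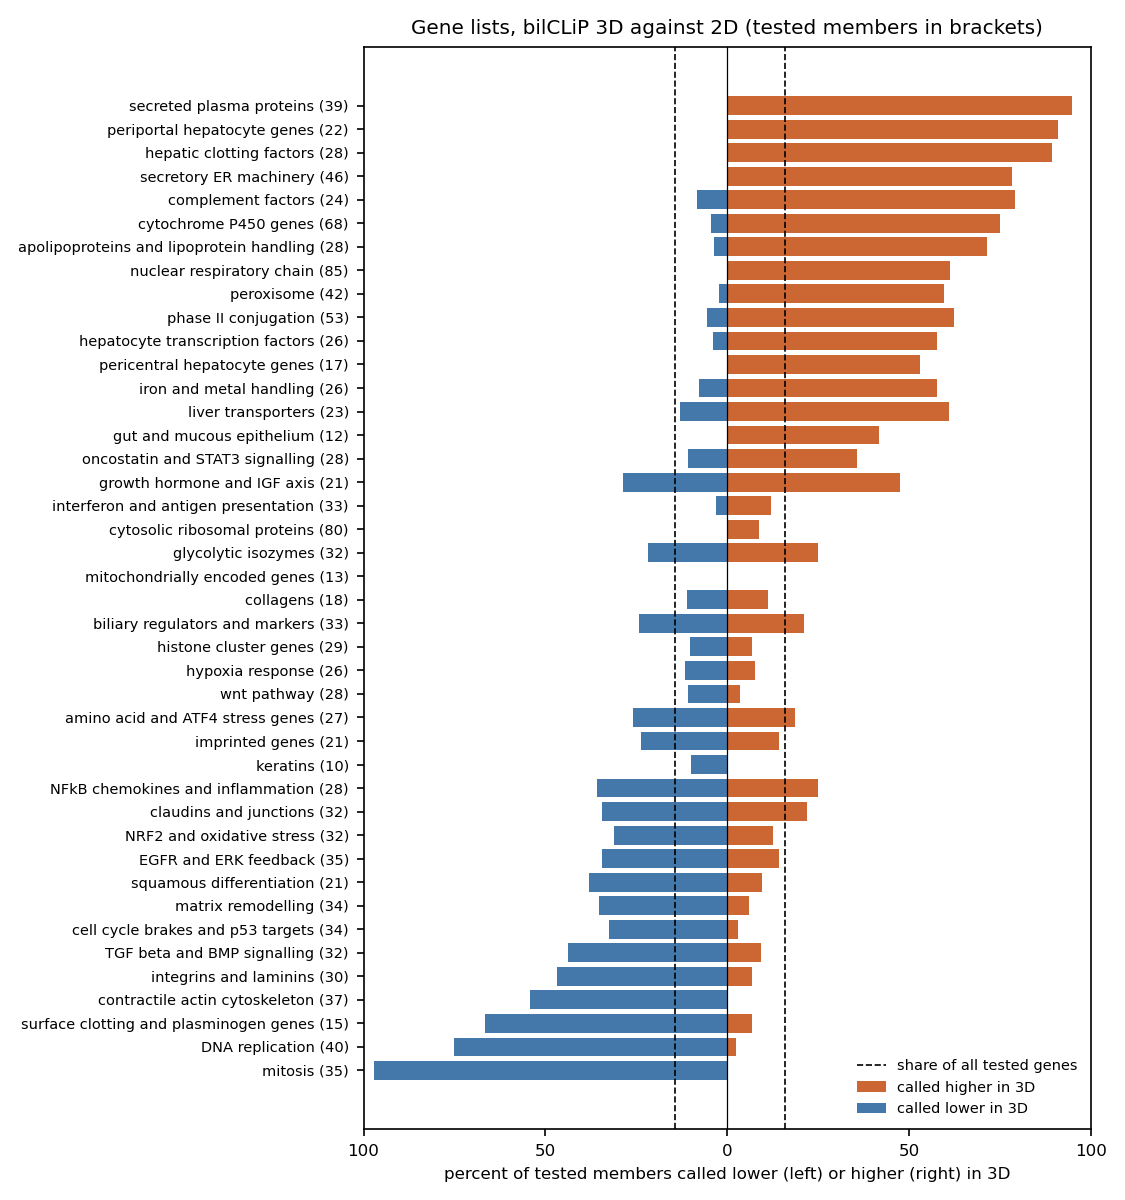
Percent of tested members that rose (right) or fell (left) in bilCLiP 3D for each list of at least 10 tested genes, with the shares of all tested genes (15.8% and 14.5%) as dashed lines. Mitosis (34 of 35 lower) and secreted plasma proteins (37 of 39 higher) mark the ends.

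Genes with the smallest p-values included some outside the groups above. Tmem37, a membrane protein related to calcium channel subunits, was at 19.98, 22.1 and 24.6 CPM in 2D and 98.6, 94.5 and 102 CPM in 3D (log2 fold change 2.14 ± 0.13, adjusted p = 8.07e-06). Dio3, the deiodinase that inactivates thyroid hormone, was at 69.5, 79 and 62.6 CPM in 2D and 0.198, 0 and 0.116 CPM in 3D (log2 fold change -9.35 ± 0.73, adjusted p = 2.73e-05), and Flrt3, a surface protein of FGF signalling, at 85.2, 79.4 and 100.3 CPM in 2D and 3.03, 4.25 and 5.69 CPM in 3D (log2 fold change -4.35 ± 0.34, adjusted p = 2.73e-05). Nrip1, a corepressor of nuclear receptors, was at 61.1, 63 and 64.9 CPM in 2D and 15.1, 14.4 and 17.3 CPM in 3D (log2 fold change -2.01 ± 0.14, adjusted p = 1.68e-05), and Ltbp3, which stores latent TGF-beta in matrix, at 399, 452 and 394 CPM in 2D and 106, 79.9 and 94.6 CPM in 3D (log2 fold change -2.15 ± 0.17, adjusted p = 2.87e-05). Zfp697 (-2.82) and Gpr137b (-2.37) fell as well. The 2D and 3D libraries of these genes did not overlap, which was a condition of their choice and not a finding.

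The 3 cultures were not alike, and culture 1 stood furthest out. Among genes of at least 50 CPM in the group, the median SD of log2 values was 0.178 in 2D and 0.176 in 3D, with 71 and 89 genes over 1. In 2D, 92 genes were at least 4-fold lower in culture 1 than in both others and 47 at least 4-fold higher, against 29 and 14 for culture 2 and 16 and 37 for culture 3. In 3D these numbers were 54 and 45, 16 and 25, and 8 and 11. Flat culture 1 was the lowest library for 28 of 39 plasma protein genes (71.8%, against 37.6% of all tested genes) and for 20 of 26 hepatocyte factors. Other lists stood further out. Culture 1 was the lowest library for 13 of 13 protein-coding mitochondrial genes in 2D and 12 of 13 in 3D. It was also the lowest for 10 of 10 keratins in 2D and 8 of 10 in 3D. It was the highest for 64 of 80 cytosolic ribosomal protein genes in 2D and 76 of 80 in 3D (34.6% and 36.1% of all tested genes), and for 30 of 35 mitosis genes in 2D. Among spheroids, culture 1 was the lowest for 18 of 22 periportal genes (81.8%, against 36.1% of all) and the highest for 9 of 17 pericentral genes (52.9%). These orders were chosen after the values were seen and are a description of 3 libraries. Serpina6, the carrier of glucocorticoids, was at 0, 0 and 0 CPM in 2D and 384, 6.43 and 2.96 CPM in 3D, and Wfdc21, a small secreted protein, at 0, 0 and 0 CPM in 2D and 3.95, 263 and 126 CPM in 3D, which are among the genes of widest spread in 3D, with H19, Arg1, Tat and Reg3b above. In 2D the widest included Ly6a, a stem cell antigen, at 18.7, 4.003 and 396 CPM in 2D and 46, 14.8 and 170 CPM in 3D, the follistatin relative Fstl1, at 40.1, 2.18 and 188 CPM in 2D and 2.77, 0.172 and 14.2 CPM in 3D, and the chemokine Ccl7, at 4.05, 168 and 91.9 CPM in 2D and 0.395, 6.89 and 8.18 CPM in 3D. Fstl1 and Ccl7 did not pass (adjusted p = 0.0805 and 0.0688) but did with the replicate block (0.000573 and 0.0287).

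**Figure D4:**
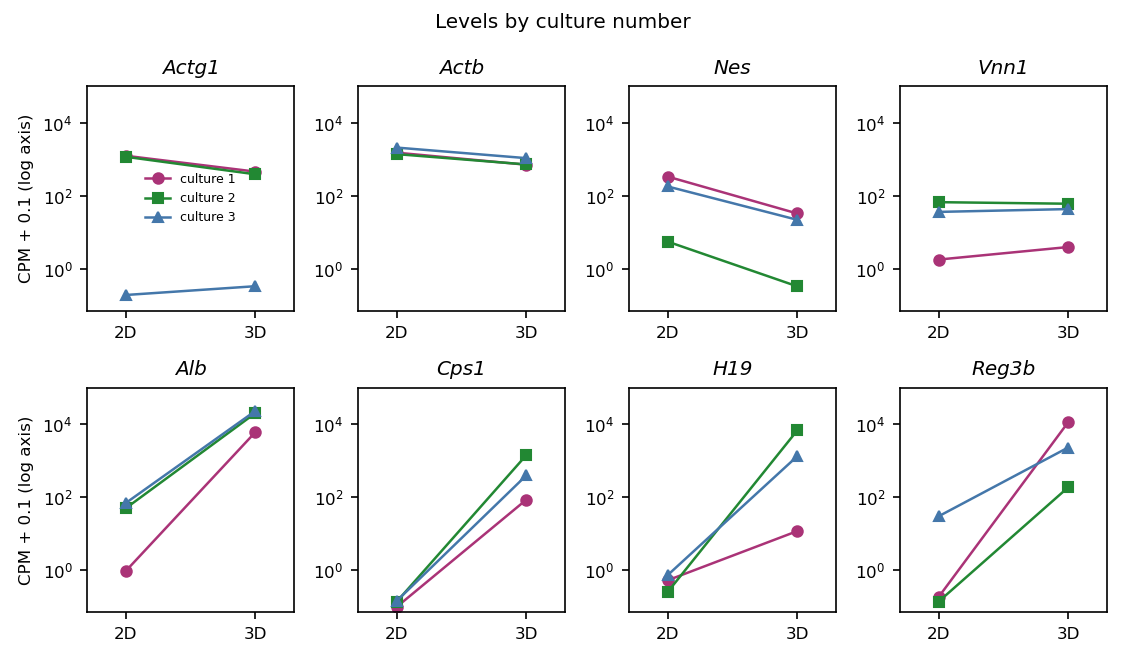
CPM + 0.1 on a log axis for 8 genes in the 6 bilCLiP libraries, with a line joining the 2D and 3D libraries of each culture number. Actg1 lies near 0 in both libraries of culture 3, and Nes is lowest in both of culture 2.

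In 5 genes 1 culture number stood at least 8-fold above or below the other cultures in both 2D and 3D, which is how they were chosen. Actg1, gamma actin, was at 1231, 1153 and 0.0911 CPM in 2D and 454, 383 and 0.232 CPM in 3D. Both libraries of culture 3 thus had almost no Actg1 counts, while all hepCLiP libraries had 317 to 1638 CPM. Its 6 nearest tested neighbours of at least 5 CPM had ratios of culture 3 to the mean of cultures 1 and 2 of 0.716 to 1.19. Reads of Actg1 can be shared with near-identical copies, and the cause of its absence in culture 3 was not tested. Its fall in 3D did not pass (adjusted p = 0.581) but did with the replicate block (-1.36 on the log2 scale, adjusted p = 0.00715). Nes, the intermediate filament nestin, was at 331, 5.4 and 178 CPM in 2D and 32.3, 0.23 and 21.7 CPM in 3D and likewise passed only with the block (adjusted p = 0.000137). Vnn1, a pantetheinase, was at 1.68, 66.1 and 35.8 CPM in 2D and 3.82, 59.9 and 42.8 CPM in 3D, low in both libraries of culture 1. The unnamed transcript model Gm42047 was at 368, 0.0389 and 0.0911 CPM in 2D and 153, 0 and 0 CPM in 3D. It too passed only with the block (adjusted p = 0.00516), although bilCLiP cultures 2 and 3 were near 0 in both conditions. In hepCLiP culture 2 Gm42047 was at 414.9 CPM in 2D and 80.8 CPM in 3D, and near 0 in the other hepCLiP cultures. Within each culture number Nes was also lower in 3D than in 2D, and Actg1 was lower in 3D in cultures 1 and 2.

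Whether the response to 3D depended on cell origin was asked by the difference between the bilCLiP and hepCLiP fold changes. No gene (0 of 14798, 0%) passed in edgeR's test, where 532 genes (3.6%) had an unadjusted p under 0.05. The smallest adjusted p was 0.937, for Tmem37, whose log2 fold change was 2.14 in bilCLiP and 1.01 in hepCLiP. Without hepCLiP 2D replicate 3, whose tag goes against its title, 0 genes passed as well. The fit with the replicate block also called 0 (1236 at an unadjusted p under 0.05), limma on the authors' normalized values 0 (486), and DESeq2 16 (648). In hepCLiP 5139 genes passed, and 3671 passed in both in the same direction, which is 81.9% of the bilCLiP and 71.4% of the hepCLiP calls, with 0 in opposite directions. A test of the difference that calls no gene does not show that the origins respond alike. Sparc, a matrix protein, had -2.21 in bilCLiP and -4.39 in hepCLiP, with an unadjusted p of 0.00185 for the difference. The origins also differ in sex-linked genes. Xist, the RNA of the inactive X chromosome, was at 812, 989 and 1163 CPM in 2D and 893, 1014 and 1052 CPM in 3D, and the Y-linked genes Ddx3y, Eif2s3y, Kdm5d and Uty were at 0 in all 6 bilCLiP libraries, whereas hepCLiP cultures 1 and 3 expressed Y-linked genes and hepCLiP culture 2 expressed neither. Origin and this difference cannot be told apart.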

How the data were processed

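RNA-seq libraries were made from total RNA, per the labels. The authors deposited raw gene counts and a normalized table in which each library's counts are divided by a constant (unit signal). Per the submitters' processing notes, reads were handled on the GRCm39 build with DESeq2, featureCounts 2.0.1 and STAR 2.7.10b among the tools. Which annotation was counted, and whether by strand, is not given in the sources used here. Genes that overlap or run antisense cannot be told apart, and reads of near-identical families (Serpina1, Serpina3, Cyp2a, Cyp2c, Cyp2d, Cyp3a, Ugt, Gst, Reg3, Saa, actins) are uncertain.

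The table held 53599 genes, 24092 with no count. In R 4.3.3, edgeR 4.0.16 (filterByExpr, TMM, robust quasi-likelihood fit of 4 group means over 12 libraries, Benjamini-Hochberg adjustment, checked on simulated data) gave the 3D against 2D contrast and its difference between origins. The simulated data changed few genes and held no effect of culture number. They therefore cannot give error rates under changes as wide as those seen here. Standard errors come from the fold change and the F statistic. Replicate pairs differed by more than sampling noise. The main fit held no pairing. Only in the replicate block were the culture numbers taken as pairs, because same-numbered libraries deviated together.

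A rule took the 10 called genes per direction with the smallest p (at least 4-fold, mean of at least 20 CPM, no overlap between conditions). Unnamed gene models were left out of that choice. The rule also took up to 4 called members per list of 47, 33 markers and 8 genes of widest spread per condition. Some of these are not reported here. Other named genes were chosen after their values were seen, and the comparison, lists and rule were chosen with earlier results of these data known. Folds against 0 counts use a floor of 3 counts over the group. Intervals and floors cover counting error only. Alternatives were DESeq2 1.42.0, limma 3.58.1 on log2 of the deposited signal plus 1, other scaling and filters, the replicate block, bilCLiP libraries alone, a test against a 2-fold change and leaving out each library. Leaving out culture 1 was added after the data were seen.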

Additional observations from a re-analysis of the deposited data

How the results depend on the processing

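The number of genes called in 3D against 2D ranged from 3038 (culture 1 left out of both conditions) to 6383 (replicate block), against 4485 as reported, and was 1290 in a test against a 2-fold change. Leaving out single libraries gave 3088 to 4555 genes. Of 187 named genes called, 187 also passed with the replicate block, 184 by DESeq2, 181 by limma, 160 with no filter on low counts, 161 with culture 1 left out and 147 against a 2-fold change, and 0 changed direction under any setting. The share of calls that were higher in 3D ran from 48.5% to 62.5%. The difference between origins was called in 0 genes as reported, in 16 by DESeq2, and in 0 to 3 as single libraries were left out, 3 being without hepCLiP 2D replicate 2. The replicate block gave 0. The gain of plasma protein genes in 3D, 20.6 percentage points of all counts, ran from 17.8 to 22.8 over its alternatives. With 3 libraries per condition an exact test of a single value cannot go below 0.1, and genes with few counts in 2D have fold changes known only as bounds.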
